A study of Mus musculus with 486 samples.

Results

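Mpo and Cebpa were followed in single lymphoid progenitor cells of mouse bone marrow. They are 2 of the 47 gene assays in the deposited table and were found by assay name. Reverse transcription quantitative PCR (RT-qPCR) had been run cell by cell on a microfluidic chip with TaqMan assays, after sorting, lysis and pre-amplification. The readout is the cycle threshold (Ct), the PCR cycle at which fluorescence passes a threshold, so low values stand for abundant template, and at full efficiency a step of 1 cycle doubles it. Cells came from wild-type (wt) bone marrow of strain C57/Bl6, and all groups share this strain, genotype and tissue. Common lymphoid progenitors (CLP) had been sorted by Ly6d and Gfra2 into 3 subtypes, with 87 cells that were Ly6d-Gfra2-, 86 Ly6d+Gfra2- and 82 Ly6d+Gfra2+. FrA cells, an early B-lineage compartment, had been sorted by Gfra2 and Bst1 into 3 more, with 83 cells that were Gfra2-Bst1-, 83 Gfra2+Bst1- and 42 Gfra2+Bst1+. No treatment, age or animal is given in the labels, and the cells of a subtype were handled as 1 sample.

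Mpo encodes myeloperoxidase, the heme enzyme of neutrophil granules, and its transcript is a long-used marker of granulocyte-monocyte precursors. Cebpa encodes C/EBPα, a basic leucine zipper transcription factor that is required for granulocyte-monocyte differentiation. In B-cell development the factors Ebf1 and Pax5 establish and hold B-lineage identity, and loss of myeloid options is a known part of that commitment. Spi1, which encodes PU.1, serves both myeloid and lymphoid progenitors and was the only other granulocyte-monocyte assay measured.

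Mpo was detected in most CLP and in about 1 in 10 FrA cells, and its fall between the compartments was the largest difference among 45 assays. Cebpa was rare in every subtype, with similar shares in CLP (6.67%) and FrA (6.25%). Among Ly6d+Gfra2- CLP, cells with Mpo held Ebf1, Rag1 and Rag2 more often, and Spib less often, than cells without it.

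An assay counted as detected at a Ct of at most 28, and the value 40 was read as no Ct. The 463 cells analysed lay on 11 plates with 40 to 45 cells each. Every subtype filled 2 plates except FrA Gfra2+Bst1+, which filled 1. Each plate carried the single cells of just 1 subtype. Plate and subtype therefore cannot be told apart between subtypes, while both plates of a subtype show its spread. The mean Ct of the reference assays lay between 11.2 and 12.6 in the 6 subtypes. Of the B-lineage assays Il7r and Cd24a were detected in nearly all cells of all subtypes. Others were not, and Igll1 and Pou2af1 were found in no Ly6d-Gfra2- CLP.

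Mpo was found in 69 of 87 Ly6d-Gfra2- CLP, which is 79.3% (exact 95% interval 69.3% to 87.3%). Its plates gave 71.4% and 86.7%. In Ly6d+Gfra2- CLP Mpo was found in 48 of 86 cells, or 55.8% (44.7% to 66.5%), with plates at 59.5% and 52.3%. The Ly6d+Gfra2+ CLP were close to these, with 46 of 82 cells or 56.1% (44.7% to 67%) and plates at 60% and 52.4%. All 6 CLP plates thus had Mpo in more than 52% of cells. The 5 FrA plates lay far below them.

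In FrA Gfra2-Bst1- cells 7 of 83 had Mpo, which is 8.43% (3.46% to 16.6%), with plates at 12.2% and 4.76%. In FrA Gfra2+Bst1- cells the count was 9 of 83, or 10.8% (5.08% to 19.6%), with plates at 7.14% and 14.6%. In FrA Gfra2+Bst1+ cells it was 5 of 42, or 11.9% (3.98% to 25.6%). Neighbours among the FrA subtypes did not differ beyond the gap between plates. The order of the 6 subtypes by Mpo was Ly6d-Gfra2- CLP, then both Ly6d+ CLP subtypes together, then all 3 FrA subtypes together. The intervals hold counting error alone and leave out any spread between animals or sorts.

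**Figure D1:**
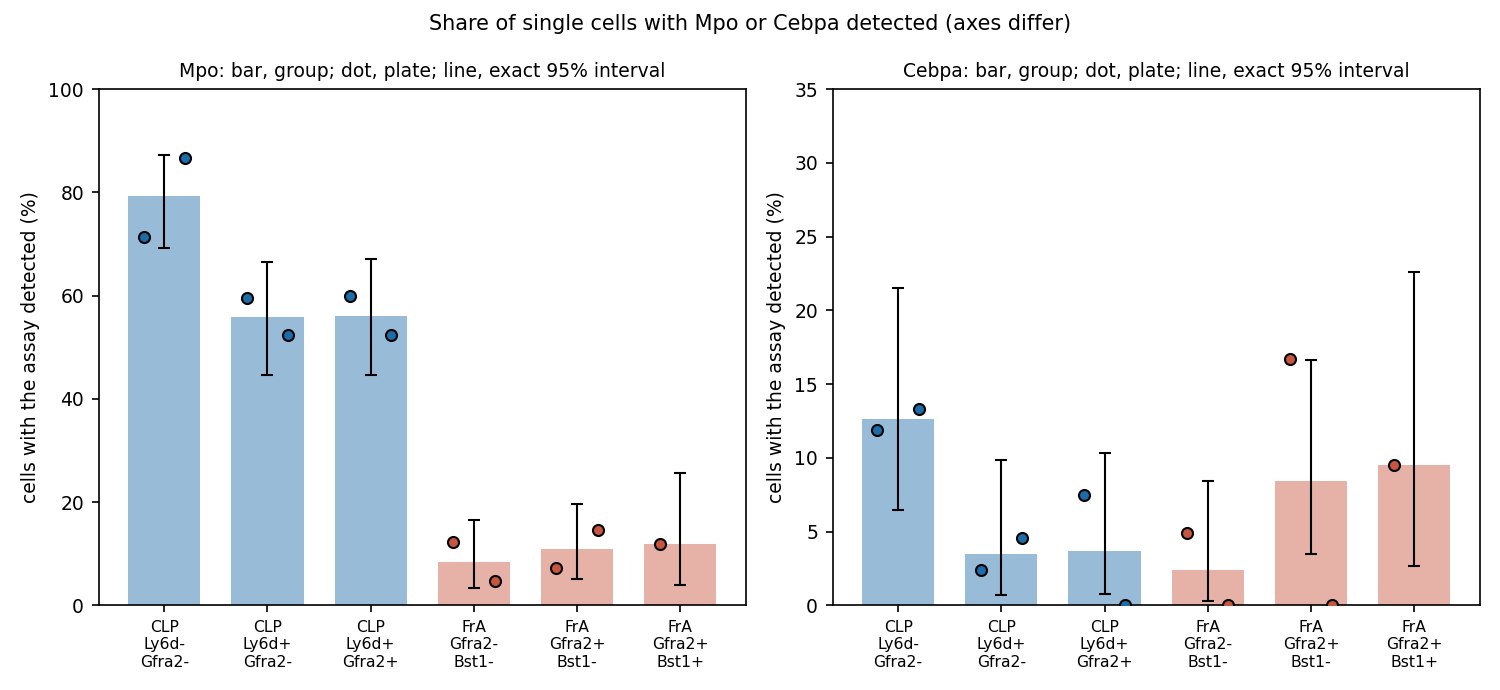
Share of single cells (%) with Mpo (left) and Cebpa (right) detected in the 6 sorted subtypes, with a different axis range for each gene. Bars are subtypes, dots are plates and lines are exact 95% intervals. Mpo lies between 55.8% and 79.3% in the CLP bars and between 8.43% and 11.9% in the FrA bars, while no Cebpa bar is above 12.6%.

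Between the compartments, a difference was called when it reached 20 percentage points and every plate of one side lay beyond every plate of the other. Among Gfra2+ cells Mpo fell from 56.1% in Ly6d+Gfra2+ CLP to 10.8% in FrA Gfra2+Bst1-, a difference of -45.3 points (Newcombe 95% interval -56.7 to -31.5). It was the only assay of 45 called lower there (2.22%). Among Gfra2- cells Mpo fell from 55.8% in Ly6d+Gfra2- CLP to 8.43% in FrA Gfra2-Bst1-, by -47.4 points (-58.3 to -34.2). In that comparison 3 of 45 assays were called lower (6.67%), and Mpo had the largest difference in either direction.

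With the 3 subtypes of each compartment weighted equally, Mpo went from 63.7% to 10.4%, a difference of -53.3 points. The lowest CLP plate had 52.3% and the highest FrA plate 14.6%, so the compartments did not overlap. Mpo was the only assay of 45 called lower (2.22%). Spi1 was detected in 97.6% of CLP and 92.0% of FrA cells under the same weighting, a difference of -5.66 points that was not called. Its lowest subtype was FrA Gfra2-Bst1- with 80.7%, against 95.3% in Ly6d+Gfra2- CLP. Cebpa changed by 0.192 points.

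**Figure D2:**
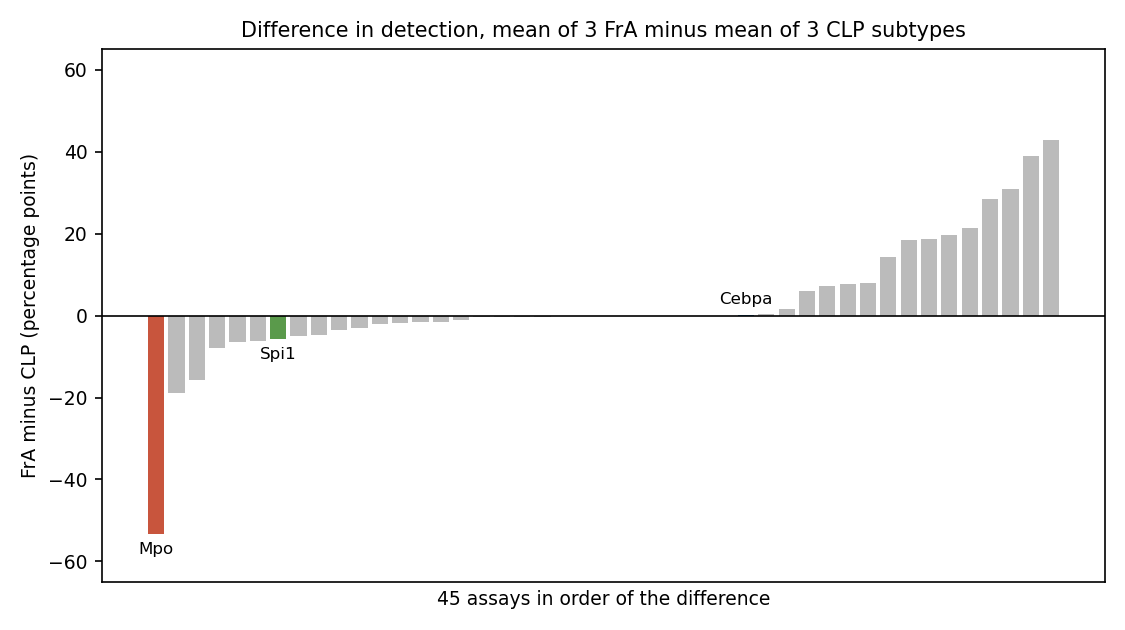
Difference in detection (percentage points) for 45 assays, as the mean of the 3 FrA subtypes minus the mean of the 3 CLP subtypes, ordered from lowest to highest. Each bar is an assay. Mpo stands at -53.3 points, Spi1 at -5.66 and Cebpa at 0.192.

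Within CLP, Mpo was less frequent in Ly6d+ than in Ly6d- cells. From Ly6d-Gfra2- to Ly6d+Gfra2- the difference was -23.5 points (-36.2 to -9.57), with plates at 71.4% and 86.7% against 59.5% and 52.3%. Of 45 assays 2 were called lower in this comparison (4.44%), and the fall of Mpo was the largest. The call depended on the plates used. The difference was -15.6 points without plate 9 of the Ly6d- cells and -19.8 points without plate 7 of the Ly6d+ cells, both short of the rule.

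Between Gfra2- and Gfra2+ cells of the Ly6d+ CLP the Mpo share differed by 0.284 points (-14.4 to 15.0), where 7 of 45 assays were called in either direction (15.6%). Among FrA cells Mpo differed by 2.41 points (-7.01 to 11.9) between Gfra2- and Gfra2+ cells, where 11 of 45 assays were called (24.4%). Between Bst1- and Bst1+ cells it differed by 1.06 points (-9.77 to 15.1), where 3 of 45 were called (6.67%). Mpo was not called in any of these 3 steps, and the intervals allow differences of up to 15.1 points.

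Where Mpo was present its Ct was low. Of the 184 Mpo-detecting cells 183 had a Ct of at most 18, so the limit of 28 had little bearing on who counted as positive. The Ct ranged from 9.73 to 17.4 with a median of 13.3 in Ly6d-Gfra2- CLP. It ranged from 12.1 to 17.4 with a median of 14.7 in Ly6d+Gfra2- CLP. Among Ly6d+Gfra2+ CLP it ranged from 11.5 to 19.9 with a median of 14.2. The range of Ly6d-Gfra2- cells reached the lowest Ct, and the ranges of the 3 subtypes overlapped.

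The 21 Mpo-detecting FrA cells spanned much of the CLP range. Their Ct ran from 14.8 to 16.1 with a median of 15.7 in the 7 Gfra2-Bst1- cells. It ran from 11.0 to 15.7 with a median of 13.5 in the 9 Gfra2+Bst1- cells. The 5 Gfra2+Bst1+ cells had a median of 14.1 and a lowest Ct of 9.44, below that of any CLP cell. A Ct of at most 13 was reached by 47 of the 163 Mpo-detecting CLP and by 5 of the 21 Mpo-detecting FrA cells. All cells, with or without Mpo, numbered 255 in CLP and 208 in FrA. Relative to the reference assays of the same cell, the mean Mpo Ct was 2.27 ± 1.28 cycles later (SD, n = 69 cells) in Ly6d-Gfra2- CLP and between 2.20 and 2.87 cycles later in the other 5 subtypes. On this scale the subtype means differed by less than the SD among cells.

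**Figure D3:**
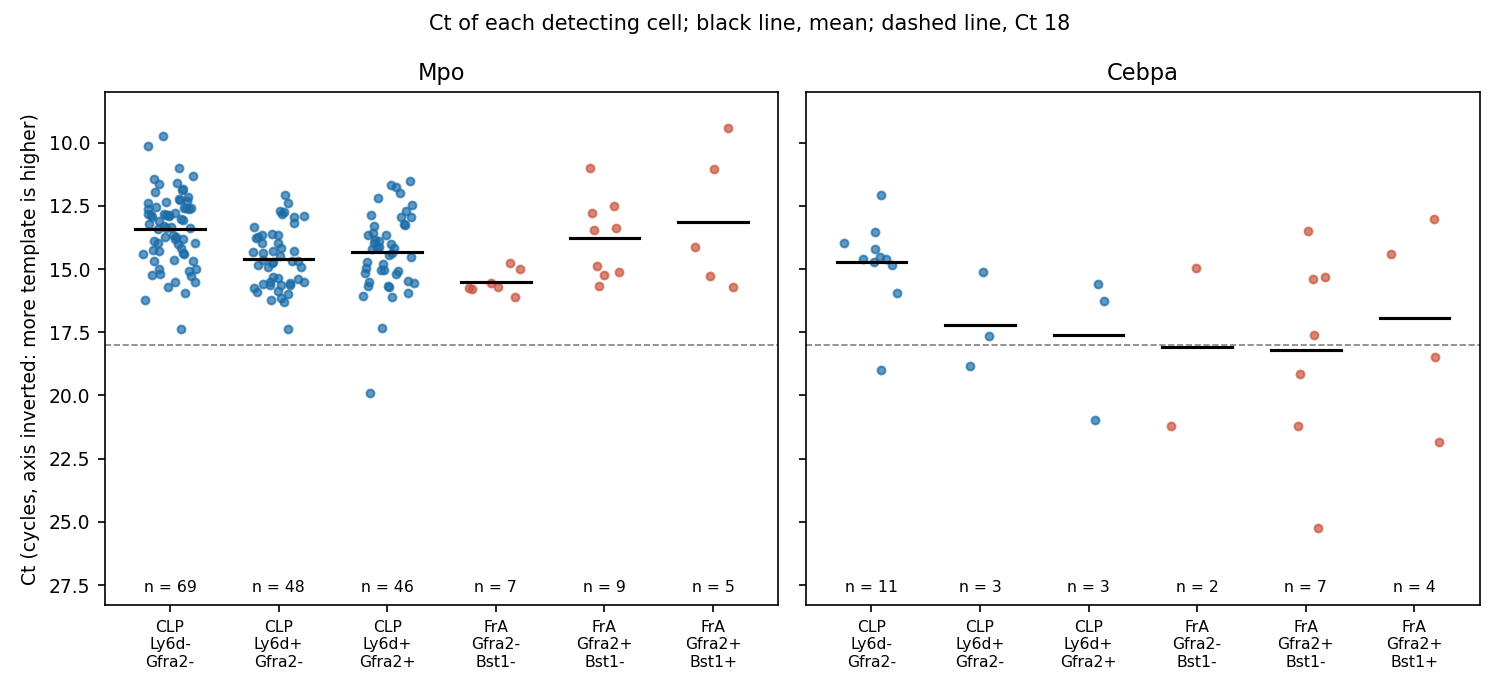
Ct (cycles, inverted axis, so more template is higher) of each cell with Mpo (left) or Cebpa (right) detected in the 6 subtypes. Dots are cells, black lines are means and the dashed line marks a Ct of 18. Of 184 cells with Mpo 183 lie above the dashed line, and 9 of 30 cells with Cebpa lie below it.

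Levels among detecting cells were compared where an assay was present in at least 50% of both subtypes, with a rule of 1 cycle and separate plates. The mean Mpo Ct was 13.4 ± 1.43 (SD, n = 69 cells) in Ly6d-Gfra2- and 14.6 ± 1.19 (SD, n = 48 cells) in Ly6d+Gfra2- CLP. The level was thus lower in Ly6d+ cells by 1.17 cycles, and 2 of 22 assays met the rule (9.09%). Other transcripts moved with it without meeting the rule. The reference assay Atp5a1, a mitochondrial ATP synthase subunit, was lower by 0.96 cycles, Spi1 by 0.88 and Kit, the stem cell factor receptor, by 0.87.

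Once each cell's mean reference Ct was subtracted, the Mpo level differed by -0.15 cycles and was no longer called. Without plate 9 it differed by -0.53 cycles. From Ly6d+Gfra2- to Ly6d+Gfra2+ CLP the Mpo level differed by 0.27 cycles, against a background of 3 of 23 assays called (13%).

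Cebpa was detected in 30 of 463 cells, 17 of 255 CLP (6.67%, exact 95% interval 3.93% to 10.5%) and 13 of 208 FrA cells (6.25%, 3.37% to 10.5%). These intervals overlap almost fully. Ly6d-Gfra2- CLP had the highest share with 11 of 87 cells, or 12.6% (6.48% to 21.5%), and plates at 11.9% and 13.3%. Ly6d+Gfra2- CLP had 3 of 86 cells (3.49%, plates 2.38% and 4.55%). Ly6d+Gfra2+ CLP had 3 of 82 (3.66%), all on plate 1 with 7.5%, while plate 10 had 0 of 42 cells, which allows up to 7.14%.

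In FrA, Cebpa was present in 2 of 83 Gfra2-Bst1- cells (2.41%), both on plate 2. In Gfra2+Bst1- cells it was present in 7 of 83 (8.43%), all on plate 3 with 16.7%, while plate 4 had 0 of 41 cells, which allows up to 7.32%. In Gfra2+Bst1+ cells it was present in 4 of 42 (9.52%). In Gfra2+Bst1- cells the gap between plates exceeded the gap between subtypes.

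No Cebpa difference met the rule. From Ly6d-Gfra2- to Ly6d+Gfra2- CLP it was -9.16 points (-18.1 to -0.856), with separate plates and the same direction as Mpo. Between the compartments it was 4.78 points (-3.06 to 13.1) among Gfra2+ cells and -1.08 points (-7.59 to 5.30) among Gfra2- cells. Without plate 3 the former became -3.66 points.

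The Cebpa-detecting cells of Ly6d-Gfra2- CLP had a lower mean Ct than those of the other subtypes, with wide spread. In Ly6d-Gfra2- CLP the 11 Cebpa-detecting cells had a Ct from 12.1 to 19.0 with a median of 14.6, and 10 of them were at or below 18. The 13 FrA cells reached a Ct of 25.2, with a median of 17.6 against 14.9 in the 17 CLP cells. The mean Cebpa Ct was 14.7 in Ly6d-Gfra2- CLP, 17.2 and 17.6 in the Ly6d+ CLP subtypes without and with Gfra2 (3 cells each), and 18.1, 18.2 and 16.9 in FrA Gfra2-Bst1-, Gfra2+Bst1- and Gfra2+Bst1+ cells. The CLP median thus rested on the 11 Ly6d-Gfra2- cells. Relative to the reference assays of the same cell, the mean Cebpa Ct was 3.57 ± 1.58 cycles later (SD, n = 11 cells) in Ly6d-Gfra2- CLP. It was 4.54 ± 2.93 cycles later (SD, n = 3 cells) in Ly6d+Gfra2- CLP, and up to 6.97 in the other subtypes. A Ct above 18 occurred in 6 of 13 FrA and 3 of 17 CLP cells. Cebpa reached 50% of cells in no subtype, so no level comparison was made.

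Mpo and Cebpa occurred together in 17 cells, 13 CLP and 4 FrA. In Ly6d-Gfra2- CLP 10 of the 11 Cebpa-detecting cells also had Mpo, where 79.3% of all cells had it. In the other subtypes the overlap was uneven. All 3 Cebpa-detecting Ly6d+Gfra2+ CLP had Mpo, and 0 of 3 Ly6d+Gfra2- CLP did. In FrA, 2 of 2 Gfra2-Bst1- and 2 of 4 Gfra2+Bst1+ cells with Cebpa had Mpo, and 0 of 7 Gfra2+Bst1- cells did, which allows up to 42.9%. These 7 cells all lay on plate 3, where 3 of 42 cells had Mpo.

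Only Ly6d-Gfra2- CLP held enough Cebpa-detecting cells to set them against their neighbours. There, 2 of 44 assays differed by at least 20 points in the same direction on both plates (4.55%). Gfra1, another GDNF-family coreceptor, named after its values were seen, was found in 1 of the 11 Cebpa-detecting cells and in 44.7% of the others. Lck, the T-lineage Src-family kinase, was found in 36.4% against 69.7%, a difference of -33.4 points. In the middle 50% of reference Ct, where 4 Cebpa-detecting cells were left, the Lck difference was 1.61 points and no longer met the rule.

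Joint detection with B-lineage genes was read within each subtype, as the share of cells with a gene among Mpo-detecting minus that among Mpo-negative cells. A difference counted when it reached 20 points with the same sign on both plates. It is a description of cells of 1 subtype, handled as 1 sample, and carries no p-value.

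The Ly6d+Gfra2- CLP divided most by Mpo, with 48 detecting and 38 negative cells. Ebf1, the factor that specifies the B lineage, was present in 87.5% of Mpo-detecting and 55.3% of Mpo-negative cells. The difference of 32.2 points (13.2 to 49.2) was 33.2 and 30.2 points on the separate plates. Rag2, which with Rag1 cuts antigen receptor gene segments, was present in 89.6% against 65.8%, with 36.9 and 14.7 points on the plates. Rag1 was present in 43.8% against 21.1%, with 42.4 points on plate 6 and 2.28 on plate 7. Of the 11 B-lineage assays, these 3 were the ones that met the rule upward, and Rag1 rested mainly on plate 6.

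Spib went the other way. This Ets-family factor of B cells and plasmacytoid dendritic cells was found in 3 of 48 Mpo-detecting cells (6.25%) and in 14 of 38 Mpo-negative cells (36.8%). The difference was -30.6 points (-47.0 to -13.5), and it was -25.4 and -34.2 on the plates. Pax5 was found in 8 of 48 Mpo-detecting cells (16.7%) and in 0 of 38 Mpo-negative cells, which allows up to 7.89%, a difference of 16.7 points (4.51 to 29.6) that did not meet the rule.

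Of 44 assays 7 met the rule in this subtype (15.9%). The other 3, named after their values were seen, were Gfra1 (70.8% against 39.5%), the anti-apoptotic gene Bcl2l1 (66.7% against 44.7%) and Bach2, a transcriptional repressor of lymphoid cells (60.4% against 84.2%). Besides Pax5, the B-lineage assays Foxo1, Il7r, Dntt, Cd24a, Igll1 and Pou2af1 did not meet the rule. At least 2 of the 4 B-lineage markers Ebf1, Pax5, Igll1 and Pou2af1 were present in 9 of 48 Mpo-detecting cells (18.8%) and 0 of 38 Mpo-negative cells. Mpo-detecting cells had a mean reference Ct of 12.2 against 12.3 and 22.5 against 21.0 other assays detected. With cells restricted to the middle 50% of reference Ct, Ebf1 differed by 34.4 points and Spib by -43.5.

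**Figure D4:**
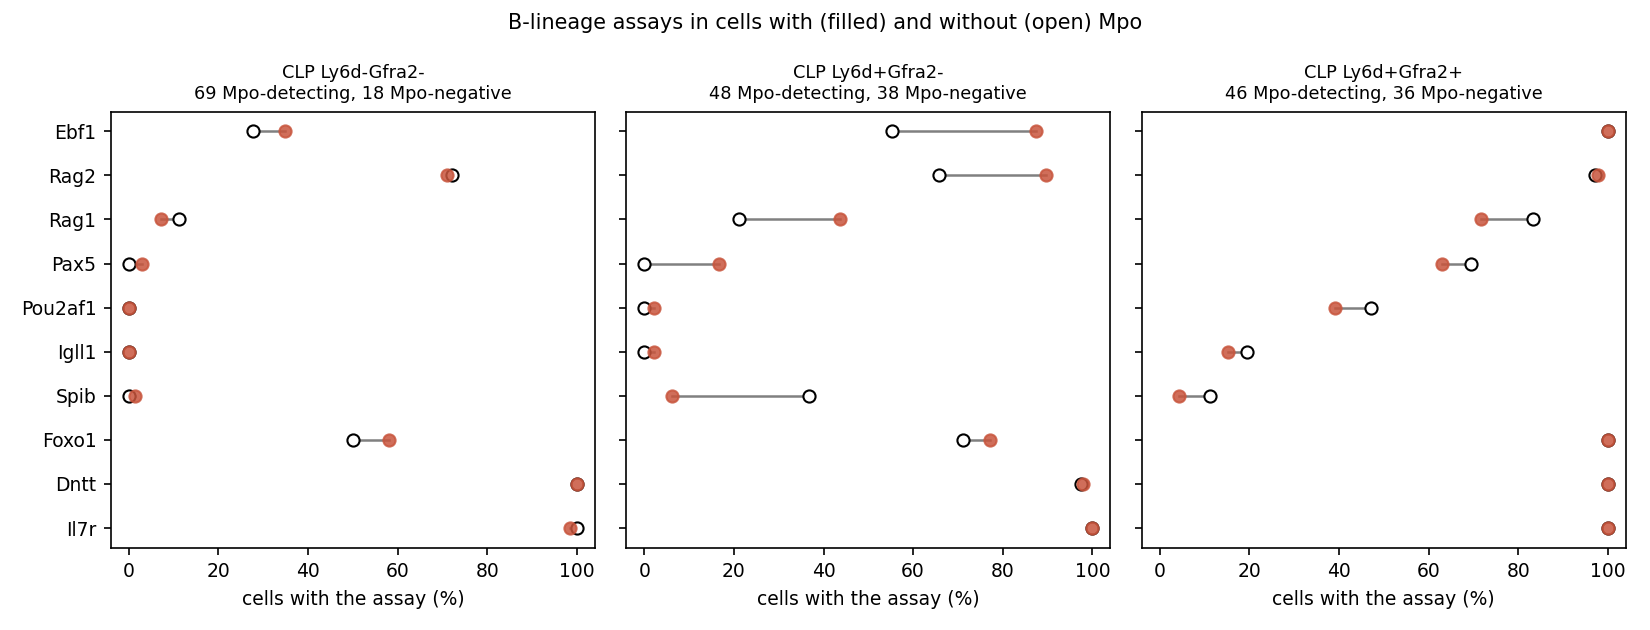
Share of cells (%) with each of 10 B-lineage assays among Mpo-detecting (filled) and Mpo-negative (open) cells of the 3 CLP subtypes, with the number of cells above each panel. In Ly6d+Gfra2- CLP Ebf1 is at 87.5% against 55.3% and Spib at 6.25% against 36.8%. In Ly6d+Gfra2+ CLP Ebf1, Foxo1, Dntt and Il7r are at 100% in both.

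In Ly6d+Gfra2+ CLP nearly every cell carried the early B-lineage genes whether or not it had Mpo. Ebf1, Foxo1, Dntt and Il7r were detected in 100% of the 46 Mpo-detecting and of the 36 Mpo-negative cells. Pax5 was present in 63% against 69.4%, Rag1 in 71.7% against 83.3% and Pou2af1, which encodes a coactivator of octamer factors in B cells, in 39.1% against 47.2%. Igll1, the surrogate light chain gene, was present in 15.2% against 19.4%. None of these met the rule.

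At least 3 of the 4 B-lineage markers were present in 16 of the 46 Mpo-detecting cells (34.8%) and in 19 of the 36 Mpo-negative cells (52.8%). The difference was -18.0 points (-37.5 to 3.39), and it was -18.8 and -18.2 on the plates. Mpo and Pax5 were thus found together in 29 of these 82 cells. Lck was the only assay of 44 that met the rule (2.27%), with 63% against 38.9%, and it rested on plate 1, where the difference was 47.9 points against 0.455 on plate 10.

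In Ly6d-Gfra2- CLP 69 cells had Mpo and 18 did not, and 0 of 44 assays met the rule (0%). Ebf1 was present in 34.8% against 27.8%, and its plates pointed in opposite directions, with 31.7 and -35.9 points. Pax5 was found in 2 of 69 Mpo-detecting and 0 of 18 Mpo-negative cells. With only 18 Mpo-negative cells, the interval for Ebf1 ran from -18.2 to 26.3 points.

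Most of the few FrA cells that held Mpo also carried Ebf1 and Pax5, and fewer carried Igll1 or Pou2af1. Ebf1 was detected in 20 of the 21, while of the FrA cells without Mpo 147 had Ebf1 and 40 did not. Pax5 was detected in 14 of the 21, while of the FrA cells without Mpo 117 had Pax5 and 70 did not. Igll1 was detected in 6 of the 21, while of the FrA cells without Mpo 74 had Igll1 and 113 did not. For Pou2af1 the count was 8 of the 21, against 70 with and 117 without it among the other FrA cells. These counts pool subtypes with unlike shares of these genes. In the Gfra2+Bst1- subtype Pax5 was less frequent with Mpo, at 66.7% against 90.5%, and at least 3 of the 4 B-lineage markers were present in 44.4% against 66.2%. In Gfra2-Bst1- cells those 3 markers were present in 0 of the 7 Mpo-detecting cells and in 3.95% of the others. In the Gfra2+Bst1+ subtype all 5 Mpo-detecting cells had at least 3 of the 4 B-lineage markers, as did 89.2% of the others. Their mean reference Ct was 10.7 against 12.0, so these wells held more template of other genes too, and the part of this in the Mpo signal was not tested.

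Mpo and Spib remained apart in FrA Gfra2-Bst1- cells. Spib was found in 52 of the 76 Mpo-negative cells (68.4%) and in 0 of the 7 Mpo-detecting cells, which allows up to 42.9%. In FrA Gfra2+Bst1- cells it was found in 23.0% of Mpo-negative and 0 of 9 Mpo-detecting cells, which allows up to 33.3%. In FrA Gfra2+Bst1+ cells 3 of the 5 Mpo-detecting cells had Spib, against 35.1% of the others. Over all subtypes 9 of 463 cells had both transcripts, 175 had Mpo alone and 100 had Spib alone. In CLP 6 of 255 cells had both, 157 had Mpo alone and 18 had Spib alone. In FrA 3 of 208 cells had both, 18 had Mpo alone and 82 had Spib alone. Mpo thus lay mostly in CLP and Spib mostly in FrA, so the pooled count does not measure separation within a subtype.

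Across the 11 plates, the assays whose detection shares ran most like those of Mpo were Id2 (Pearson r = 0.71), Dntt (0.68) and Gata3 (0.67), out of 28 assays with enough spread. The most opposite were Id3 (-0.87), Spib (-0.78) and Foxo1 (-0.67). For Cebpa the highest were Kit (0.49), Bcl2l1 (0.47) and Spi1 (0.42) and the lowest were Foxo1 (-0.32), Il2rb (-0.26) and Spib (-0.26). Mpo with Cebpa gave 0.20. Plates of a subtype hold the same kind of cell and are not independent points, so these values are descriptions without a test.

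Of the plates, 10 also held 1 well of 10 cells and 1 well of 20 cells, 6 from CLP and 4 from FrA plates. In such wells, fewer cells with a transcript and less transcript per cell cannot be told apart. Mpo was detected in all 20 of them. In wells of 10 cells its Ct was 10.5, 11.1, 11.6, 11.4, 8.64 and 12.7 on CLP plates 1, 5, 6, 7, 9 and 10. On FrA plates 2, 3, 4 and 8 it was 15.8, 13.3, 13.9 and 13.5. All CLP wells were below all FrA wells in Ct.

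The mean Mpo level, as 28 minus Ct, was 17.0 ± 1.35 (SD, n = 6 wells) in CLP and 13.9 ± 1.11 (SD, n = 4 wells) in FrA. The difference of 3.15 cycles had a two-sided exact permutation p = 0.0048, the smallest this design can give, and 0.093 after Benjamini-Hochberg adjustment over 39 assays. No assay passed an adjusted 0.05 by the exact permutation test (0 of 39, 0%), and 4 had an unadjusted p under 0.05. With 6 and 4 wells, passing required several assays at or near the smallest p, which only Mpo and Id3 reached. The count of 0 therefore does not show equal levels. Atp5a1 differed by 0.32 cycles (exact permutation p = 0.59, adjusted 0.88).

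In wells of 20 cells the CLP Ct for Mpo was 10.6, 9.50, 10.7, 9.50, 8.12 and 10.7 on the same plates, and the FrA Ct was 14.0, 12.9, 7.56 and 16.5. The FrA Gfra2+Bst1- well of plate 4 had the lowest Ct of all, and the other FrA wells were above every CLP well. The difference was 2.89 cycles (exact permutation p = 0.090, adjusted 0.59 over 41 assays), and 0 of 41 assays passed (0%), with 4 at an unadjusted p under 0.05. Without plate 4 it was 4.62 cycles (exact permutation p = 0.012, adjusted 0.38), and without plate 8 it was 1.63 cycles (exact permutation p = 0.27, adjusted 0.57). The adjusted p ranged from 0.35 to 0.93 over the alternatives.

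The wells were set against the sum expected from the single cells of their plate. In CLP wells the Mpo level differed from that sum by -1.14 to 0.525 cycles with 10 cells and by -0.767 to 1.22 with 20 cells. Of the 8 FrA wells, 2 stood well above it. Their expected sums rested on few Mpo-detecting single cells, 2 of 42 on plate 8 and 6 of 41 on plate 4. The 10-cell well of plate 8 was 3.35 cycles above, and the 20-cell well of plate 4 was 4.71 cycles above. In the latter well Atp5a1 was at -0.213 cycles from its own expected level, and Cebpa was detected at a Ct of 11.6 while 0 of 41 single cells of that plate had it.

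**Figure D5:**
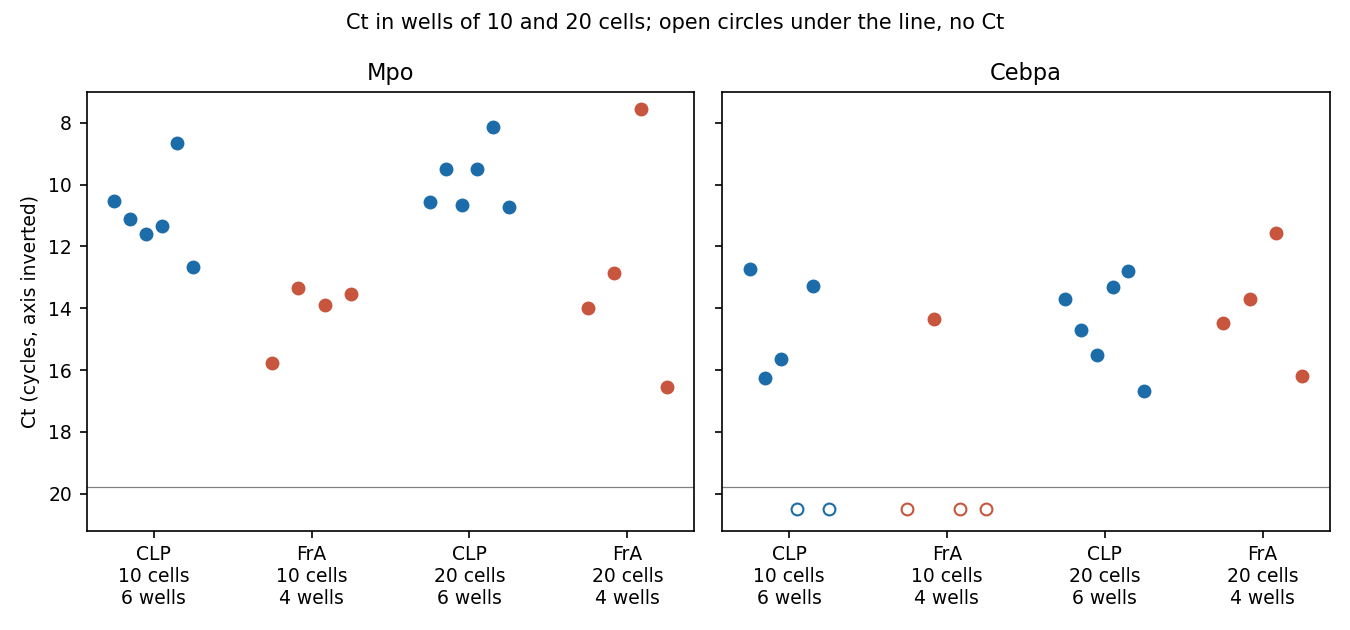
Ct (cycles, inverted axis) of Mpo (left) and Cebpa (right) in wells of 10 and 20 cells, with 6 wells from CLP and 4 from FrA plates at each size. Dots are wells, and open circles below the line are wells with no Ct. In wells of 10 cells Mpo is at 8.64 to 12.7 in CLP and at 13.3 to 15.8 in FrA, and in wells of 20 cells 1 FrA well reaches 7.56.

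Cebpa was detected in 4 of 6 CLP and 1 of 4 FrA wells of 10 cells. The difference of 5.60 cycles had an exact permutation p = 0.33 (adjusted 0.79) and was set by the wells without a Ct, 2 from CLP and 3 from FrA, which counted at 0. It was 10.6 cycles with these wells at a Ct of 40, and 9.01 cycles without plate 3, the FrA plate whose well had Cebpa. In wells of 20 cells it was detected in all 10, with a Ct from 12.8 to 16.7 in CLP and from 11.6 to 16.2 in FrA, and the difference was -0.467 cycles (exact permutation p = 0.66, adjusted 0.98). A transcript found in 6.48% of single cells was thus seen in every well of 20 cells, and in 5 of 10 wells of 10 cells.

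From 10 to 20 cells the Cebpa level rose in 9 of 10 plates, by 6.96 cycles on average, a value set by the 5 wells counted at 0. The permutation p was 0.013 and 0.079 after adjustment over 41 assays, of which 1 passed (2.44%). With the plate number as a block, the exact sign-flip permutation p was 0.014 and 0.024 after adjustment, where 26 of 41 assays passed (63.4%). Mpo rose in 8 of 10 plates by 1.24 cycles (permutation p = 0.26, adjusted 0.36, and 0.15 after adjustment with the block). Atp5a1 rose by 0.857 cycles in 9 of 10 plates.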

How the data were processed

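The deposited table holds Ct values, in PCR cycles, for 48 assays in 486 wells, read on a BioMark HD chip per the labels' protocols. Software and thresholds for the Ct calls, and whether values were normalised, are not stated in the labels used. No further unit was used. Wells were grouped by the labels. Single cells were kept with at least 2 of 3 reference assays detected, which left out 1 cell of 464. Of the 48 assay names 43 matched RefSeq symbols or synonyms. Gfra2 and Bst1, used for sorting, were left out of counts, which leaves 45 assays.

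Shares have exact (Clopper-Pearson) 95% intervals, and differences Newcombe intervals. Limits for a count of 0 are 3 cells of the number examined. Subtypes of single cells were compared without p-values, since the labels name no animal. Wells of 10 and 20 cells were compared by exact permutation over wells (100000 resamples for 20 against 10), with Benjamini-Hochberg adjustment, in Python 3.11.15 with scipy 1.17.1. Scripts were tested on simulated data. The labels give plate numbers, and the wells of 10 and 20 cells of a plate deviated together (r from 0.139 to 0.784), so plates pair them. Named genes were both members, Spi1, listed B-lineage and other lineage assays, the reference assays and the 3 most and least alike assays. The members and lists were chosen with earlier results of these data known. The assay sequences and a genome were not used here, so no sequence is printed.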

Additional observations from a re-analysis of the deposited data

Results flagged for a closer look

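Among wells of 10 FrA cells, Cebpa had a level (28 minus Ct) of 13.6 on plate 3. It was not detected in the other 3 wells. These wells all counted at 0, so any level above 0 on plate 3 would have been marked as far from them. The mark therefore shows detection in 1 well of 4 and does not show an unusual level. It was the only mark among 12 groups of plates or wells examined for a value far from the others. Chance marks about 1 in 20 groups, a rate that does not apply where the other wells tie at 0.

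Some genes differed between Mpo-detecting and Mpo-negative cells in one direction on both plates of a CLP subtype and in the opposite direction on both plates of another. They were picked by sign alone, whatever the size, from Cebpa and the listed B-lineage and other lineage assays. With so few plates such signs also arise by chance, and how often was not worked out. These differences between subtypes were not tested. For Pax5 the difference was 2.90 points in Ly6d-Gfra2-, 16.7 in Ly6d+Gfra2- and -6.40 in Ly6d+Gfra2+ CLP. For Rag2 it was 23.8 points in Ly6d+Gfra2- and -1.21 in Ly6d-Gfra2- CLP. For Kit it was 19.1 in Ly6d+Gfra2- and -2.54 in Ly6d+Gfra2+ CLP. For Id2, an inhibitor of E-protein factors, it was 15.5 in Ly6d+Gfra2+ and -8.99 in Ly6d+Gfra2- CLP. For Il2rb it was 1.69 in Ly6d-Gfra2-, 5.31 in Ly6d+Gfra2+ and -12.7 in Ly6d+Gfra2- CLP.

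On plate 8, 2 wells bear a title that marks them as lacking reverse transcriptase, while their descriptions call them cells. They entered no comparison. They gave a Ct for 25 and 26 gene assays, with Spi1 at 16.8 at position 36 and 15.7 at position 30. Atp5a1 was at 12.1 and 11.5 in the same order. Single FrA Gfra2-Bst1- cells, the subtype of this plate, had a mean Atp5a1 Ct of 12.2 and a mean of 21.8 assays detected. Whether the 2 wells lacked reverse transcriptase was not tested. Neither Mpo nor Cebpa was detected in these wells.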

How the results depend on the processing

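The fall of Mpo detection from CLP to FrA kept its direction and met the rule under all 43 alternatives run for its 3 comparisons, which changed the Ct limit, the filter on cells, the reference correction, the plate weights and the plates. Leaving out plates in turn, it ranged from -49.2 to -41.5 points among Gfra2+ cells, from -51.1 to -43.6 among Gfra2- cells and from -55.8 to -50.7 over all subtypes. The Ly6d step of Mpo ranged from -30.9 to -15.6 points over left-out plates. In the middle 50% of reference Ct the Bst1 step of Mpo was -14.9 points. Only 47 Gfra2+Bst1- and 15 Gfra2+Bst1+ FrA cells were left there. The Gfra2 step of Cebpa in FrA ranged from -2.41 to 14.3 points over left-out plates, and the CLP to FrA difference of Cebpa among Gfra2+ cells from -3.66 to 13.0.

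The Mpo level across the Ly6d step was -0.15 cycles after subtracting the reference Ct, and from -1.67 to -0.53 over left-out plates. Restricting cells to the middle 50% of reference Ct raised the count of assays that differ with Mpo to 6 in Ly6d-Gfra2- CLP, where 30 cells with and 5 without Mpo were left, and to 3 in Ly6d+Gfra2+ CLP. In those Ly6d-Gfra2- cells the difference with Mpo became -20.0 points for Id2 and 56.7 for Lck, and the difference with Cebpa became 1.61 for Lck. The cause was not tested. The Cebpa difference between compartments in wells of 20 cells ranged from -1.21 to 0.34 cycles over left-out plates. With the plate number as replicate block the rise of Cebpa from 10 to 20 cells was again 6.96 cycles, with the adjusted p falling to 0.024, and the block changed no other call on Mpo or Cebpa. Cebpa allowed no level comparison within CLP. The 11 plates, with 1 or 2 per subtype and 30 Cebpa-detecting cells, limit what can be told between subtypes.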
